A study of Mus musculus with 8 samples.

Results

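The striated muscle myosin heavy chains are the 8 genes Myh6, Myh7, Myh7b, Myh3, Myh8, Myh1, Myh2 and Myh4, found by the gene symbol of the Ensembl identifier among the 49315 genes counted. Hearts of mouse embryos were taken at E18.5, late in gestation, and their RNA sequenced. The 4 libraries called WT came from wild-type hearts and the 4 called Mut from hearts with the genotype CHD4 M195I/M195I, in which both alleles of CHD4 carry the missense change M195I. CHD4 is a chromatin remodelling ATPase and the catalytic subunit of the NuRD complex. The count column in each file per library begins with Male; those of the series-wide table do not. The labels give no treatment, strain or litter, and do not say whether a library holds 1 heart or several, so the p-values measure the spread between these libraries. A missense allele cannot be checked in counts per gene.

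Myosin heavy chains are the motor proteins of the thick filament: the head hydrolyses ATP and pulls on actin, and the long coiled-coil rods pack into the filament backbone. Striated muscle chooses among several genes whose motors differ in speed. In the mouse heart Myh6 encodes the fast alpha chain and Myh7 the slow beta chain; beta prevails in the fetal ventricle and alpha takes over around birth under thyroid hormone, while the atria express alpha throughout. Myh7b is an ancient relative with low expression in heart and slow muscle. Myh3 and Myh8 are the embryonic and perinatal skeletal chains, and Myh2, Myh1 and Myh4 encode the fast chains of types IIa, IIx and IIb in adult skeletal muscle.

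The genes lie in 3 places in GRCm38. Myh6 (ENSMUSG00000040752, chr14:54941981-54966927) and Myh7 (ENSMUSG00000053093, chr14:54970688-54994634) are neighbours on the minus strand. Myh7b (ENSMUSG00000074652, chr2:155611212-155634307) is on the plus strand. The skeletal genes follow each other on the plus strand in the order Myh3 (chr11:67078300-67102291), Myh2 (chr11:67171027-67197517), Myh1 (chr11:67200052-67224575), Myh4 (chr11:67238029-67260446) and Myh8 (chr11:67277124-67308634). Introns of Myh6, Myh7 and Myh7b hold Mir208a, Mir208b and Mir499, and the mature sequences from RefSeq (GRCm38.p6) are shown because these RNAs belong to the loci tested; capitals mark the seed, bases 2 to 8.
mmu-miR-208a-3p, intron 29 of Myh6: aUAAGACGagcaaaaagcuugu
mmu-miR-208b-3p, intron 31 of Myh7: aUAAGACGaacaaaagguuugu
mmu-miR-499-5p, intron 19 of Myh7b: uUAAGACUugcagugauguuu
The seeds of miR-208a-3p and miR-208b-3p are the same, and that of miR-499-5p differs from theirs only at base 8.

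The promoter windows of the 3 heart-expressed members are shown because these genes carry nearly all of the myosin heavy chain counts. Each window runs from 250 bases before to 50 after a RefSeq start (GRCm38.p6), on the strand of the gene. Both strands were searched for 4 short motifs and, by name, for the MEF2 and serum response factor (CArG) motifs. The E-box, another short motif, was searched too. It matched in every window shown and in 72.3% of 32851 promoter windows. The M-CAT motif, bound by TEAD factors, was searched as CATTCC. The box bound by the general transcription machinery was searched as TATAAA. The motif of the cardiac zinc finger factors such as Gata4 was searched as AGATAA. The half-site of thyroid hormone receptors was searched as AGGTCA. Capitals mark the matches other than those of the E-box, and none of the marked matches overlap.
Myh6, chr14:54966558-54966857, minus strand: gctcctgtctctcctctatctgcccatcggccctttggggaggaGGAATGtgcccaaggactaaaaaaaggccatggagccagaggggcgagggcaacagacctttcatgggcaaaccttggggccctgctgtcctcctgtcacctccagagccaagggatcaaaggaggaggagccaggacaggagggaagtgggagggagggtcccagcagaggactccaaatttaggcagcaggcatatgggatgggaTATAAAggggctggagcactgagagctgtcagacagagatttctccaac
Myh7, chr14:54994577-54994876, minus strand: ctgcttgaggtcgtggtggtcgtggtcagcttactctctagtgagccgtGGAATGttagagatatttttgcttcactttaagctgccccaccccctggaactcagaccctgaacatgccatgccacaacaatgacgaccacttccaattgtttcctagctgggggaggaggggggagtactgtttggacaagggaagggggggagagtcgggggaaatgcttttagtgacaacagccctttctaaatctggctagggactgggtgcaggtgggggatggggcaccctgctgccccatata
Myh7b, chr2:155610993-155611292, plus strand: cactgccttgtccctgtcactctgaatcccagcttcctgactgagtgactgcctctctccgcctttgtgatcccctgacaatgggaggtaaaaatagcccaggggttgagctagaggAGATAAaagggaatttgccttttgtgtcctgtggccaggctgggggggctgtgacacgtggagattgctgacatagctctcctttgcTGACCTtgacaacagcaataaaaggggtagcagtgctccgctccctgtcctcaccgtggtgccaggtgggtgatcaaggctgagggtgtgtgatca
The Myh6 and Myh7 windows each held 1 CATTCC match, on the strand opposite to the gene, a motif found in 14.7% of 32851 promoter windows of this length. RefSeq gives Myh7 a second start, and its window (chr14:54994500-54994799) held none of these motifs except the E-box, with 2 matches. The Myh6 window also held a TATAAA match (13.6% of windows), which begins 1 base after the RefSeq start and not before it. The Myh7b window held an AGATAA match (11.2% of windows) and, on the opposite strand, the AGGTCA half-site (16.3%). A match is a string of letters, and its use was not measured here.

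Sequence likeness limits how well reads can be assigned. The coding sequences of Myh6 and Myh7 were identical at 91.7% of 5802 aligned bases, those of Myh1 and Myh2 at 91.1%, and Myh7b was the most distant, at 69.3% to 72.3% against the other 7. Of the 50-base windows of each longest coding sequence, 23.8% in Myh6 and 30.3% in Myh7 also occurred in transcripts of another gene, against 0% in Myh7b. The longest stretch shared by Myh6 and Myh7 was 245 coding bases, which lie in exons 30 and 31 of Myh6 and exons 32 and 33 of Myh7. It is shown because a read inside it cannot be placed: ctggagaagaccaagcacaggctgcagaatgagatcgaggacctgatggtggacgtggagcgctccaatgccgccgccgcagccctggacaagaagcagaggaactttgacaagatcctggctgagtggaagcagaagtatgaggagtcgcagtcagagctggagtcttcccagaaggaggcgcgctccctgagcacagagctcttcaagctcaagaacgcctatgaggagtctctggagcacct. The sources used here do not say how reads that map to several places were counted.

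Library totals ranged from 18375951 to 20815388 counts in WT and from 18673488 to 21341235 in Mut. Levels are CPM, the count scaled to a common TMM-adjusted library size, TMM being a scaling that lines up the bulk of the genes. Of 16372 genes that passed the filter on low counts, 5.75% were called higher and 7.49% lower in mutants (edgeR quasi-likelihood test, Benjamini-Hochberg adjusted p under 0.05). Those are 942 and 1226 genes; with library totals in place of TMM the split was 1856 higher and 858 lower, with a median shift of 0.05 in log2. Airway RNA was present in some libraries: Scgb3a2, a secretoglobin of airway epithelium, reached 176 to 498 CPM of the library total in WT 1, 3 and 4 and Mut 3 and 4, and was at 0.33 to 6.48 CPM in WT 2 and Mut 1 and 2. Sftpc, the lung surfactant protein C gene, was counted 2498 times in Mut 4 and 0 to 78 times in the other libraries.

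Myh6 and Myh7 made up 2.85% to 3.13% of all counts in WT and 2.49% to 2.80% in Mut. Per kb of exon, the level of Myh6 was 1957 to 2209 CPM in WT and that of Myh7 was 1819 to 2162 CPM, so their ranges overlapped. Myh7b followed at 41.4 to 50.5 CPM per kb, Myh8 at 2.18 to 2.31, Myh3 at 0.16 to 0.32 and Myh1 at 0.078 to 0.11. Myh2 had 0 to 3 counts in a WT library and Myh4 had 0 in all 4, and 3 counts, the limit that a count of 0 allows, correspond to 0.148 to 0.167 CPM there. No neighbours from Myh7 down to Myh1 in this order overlapped in WT. In Mut the order was the same below Myh6 and Myh7, and Myh3 (0.11 to 0.20 CPM per kb) and Myh1 (0.045 to 0.083) again did not overlap.

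**Figure D1:**
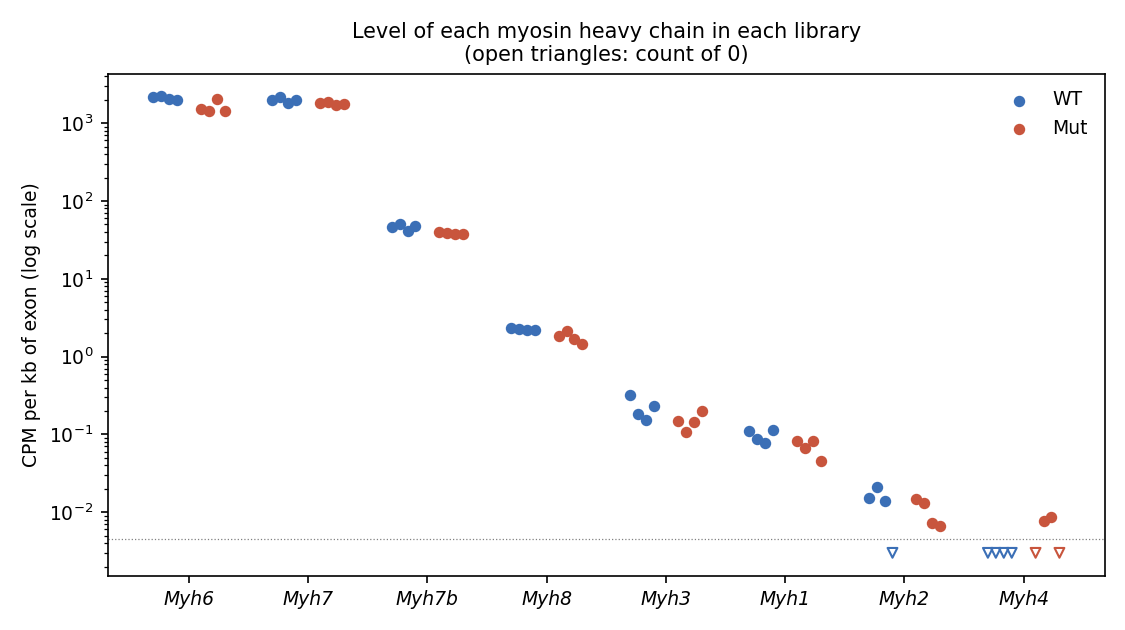
TMM-scaled CPM per kb of exon (log axis) of each of the 8 members in the 4 WT (blue) and 4 Mut (red) libraries; each point is a library and open triangles at the foot mark a count of 0. Myh6 and Myh7 lie together near the top, Myh7b between 37.8 and 50.5, and Myh2 and Myh4 at the foot with 0 to 3 counts.

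Whether Myh6 or Myh7 was the higher depends on the length used. Exons of Myh7 (8586 bases) and Myh8 (11772 bases) as counted include parts outside the longest coding transcripts, which are 6135 and 6149 bases long. With exon lengths Myh7 held 48.7% ± 1.64 (SD, n = 4) of the sum of Myh6 and Myh7 in WT, and with the longest coding transcript 56.1% ± 1.62. Shares between genes are therefore read only across genotypes.

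Of the 8 members, 6 passed the filter and 2 of these 6, Myh7b and Myh8, were called lower in mutants, 33.3% against the 7.49% of all tested genes; none was called higher. All 6 fitted log2 changes were below 0, with a median of -0.36 against 0.00 over all genes. Libraries did not overlap for the same 2 genes, with all mutants below all WT, as for 9.77% of tested genes; 8.80% had all mutants above.

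Myh6, the alpha chain, was at 13593, 14023, 13137 and 12423 CPM in WT 1 to 4 and at 9788, 9027, 13095 and 9161 CPM in Mut 1 to 4. Mut 3 lay inside the WT range, and the other 3 mutants lay below all WT libraries. The mean was 13294 ± 684 in WT and 10268 ± 1914 in Mut (SD, n = 4), a log2 change of -0.37 ± 0.12 (SE) that did not pass (adjusted p = 0.096, edgeR). With 1 library left out at a time the change was -0.50 to -0.31, and it was called only without Mut 3 (-0.50, adjusted p = 1.5e-04, edgeR). In the 5 libraries with airway RNA alone it was -0.23 (adjusted p = 0.57). In the 3 without it, of which 1 is WT, the value was -0.57, given here with no test.

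Myh7, the beta chain, was at 17004, 18564, 15619 and 17175 CPM in WT 1 to 4 and at 15818, 16001, 14486 and 15020 CPM in Mut 1 to 4. The groups overlapped, since Mut 1 and Mut 2 lay above WT 3. The mean was 17090 ± 1205 in WT and 15331 ± 707 in Mut, and the log2 change of -0.16 ± 0.06 did not pass (adjusted p = 0.076, edgeR). It was called without WT 3, at -0.20 (adjusted p = 0.034, edgeR). Within genotype, Myh7 was lower where lung epithelium markers were higher (Pearson r = -0.81 over 8 libraries that share depth and scaling). With those markers as a covariate the change was -0.17 and passed (adjusted p = 0.0092, edgeR), and it was -0.17 in the airway RNA libraries (adjusted p = 0.046) and -0.22, with no test, in the other 3.

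Myh7b was at 310, 335, 274 and 313 CPM in WT 1 to 4 and at 265, 255, 251 and 252 CPM in Mut 1 to 4. Every mutant library lay below every WT library, and the mutants spanned a narrow range. The mean fell from 308 ± 25.0 to 255 ± 6.46 CPM (SD, n = 4), a log2 change of -0.27 ± 0.05 (adjusted p = 0.0028, edgeR). The call held without each library in turn, at -0.32 to -0.23 and in the libraries with airway RNA (-0.26). Myh7b varied with Myh7 within genotype (Pearson r = 0.90) and not with Myh6 (r = 0.01), over 8 libraries.

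Myh8, the perinatal chain, was at 27.2, 26.9, 26.1 and 25.7 CPM in WT 1 to 4 and at 21.8, 24.9, 19.9 and 16.9 CPM in Mut 1 to 4. The WT libraries were close together and the mutants lay below them, with Mut 2 nearest. The mean fell from 26.5 ± 0.70 to 20.9 ± 3.37 CPM, a log2 change of -0.34 ± 0.10 (adjusted p = 0.033, edgeR). The call was lost without any of WT 1, 2, 3 or 4, Mut 1 or Mut 3 (-0.36 to -0.31, adjusted p = 0.069 to 0.12, edgeR). In the libraries with airway RNA the change was -0.52 (adjusted p = 8.2e-04, edgeR), and in the other 3, with no test, -0.20.

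**Figure D2:**
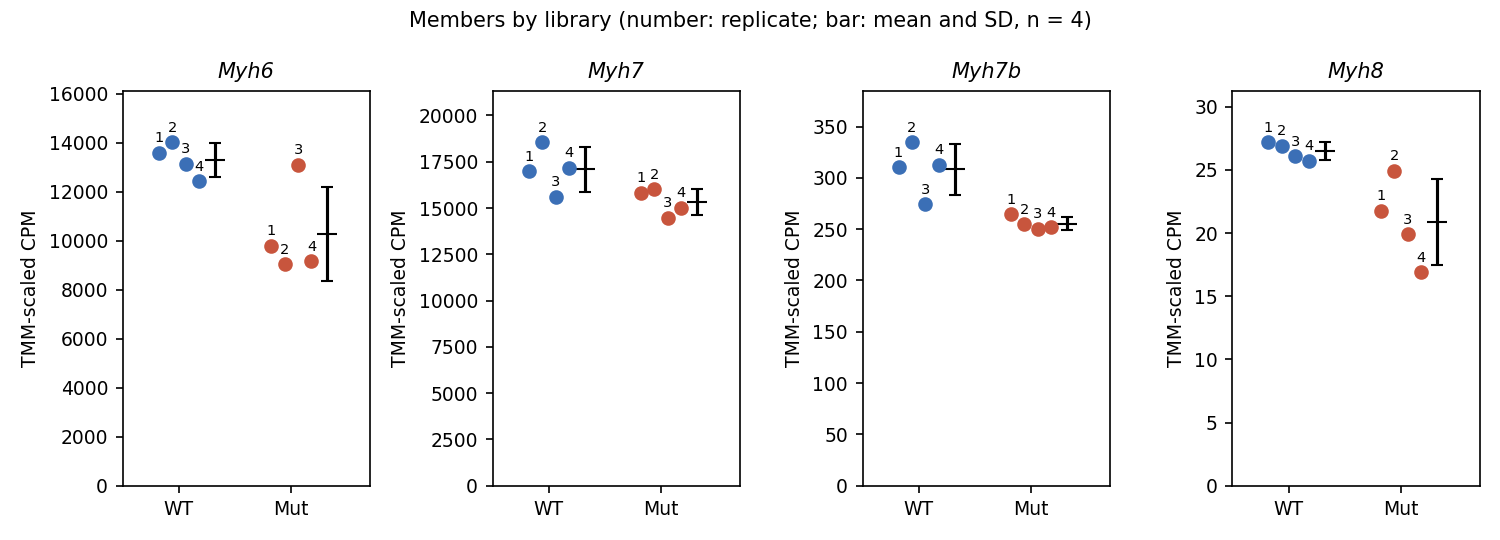
TMM-scaled CPM of Myh6, Myh7, Myh7b and Myh8 in each library, from 0, with the replicate number over each point and the mean and SD (n = 4) as a bar. Mut 3 sits among the WT libraries for Myh6 (13095 CPM), and all mutants sit below all WT libraries for Myh7b and Myh8.

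The remaining skeletal chains were scarce. Myh3 had 19 to 36 counts in a WT library and 14 to 25 in a mutant, with a log2 change of -0.56 ± 0.28 (adjusted p = 0.22, edgeR). Without WT 1 that change was -0.33 (adjusted p = 0.55, edgeR). Myh1 had 10 to 13 and 6 to 10 counts, with -0.49 ± 0.31 (adjusted p = 0.35, edgeR). Myh2 had 0 to 3 counts in WT and 1 to 2 in Mut, and Myh4 had 0 in WT and 0 to 1 in Mut, so neither was tested and no fold is given. At these counts a fold change in Myh2 or Myh4 could not be estimated.

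Isoform shares were computed per library from counts per kb of exon. Myh7 held 48.0%, 49.5%, 46.8% and 50.5% of the sum of Myh6 and Myh7 in WT 1 to 4 and 54.4%, 56.7%, 45.0% and 54.8% in Mut 1 to 4. Mutants 1, 2 and 4 lay above all WT libraries and Mut 3 lay below them all. The mean was 48.7% ± 1.64 in WT and 52.7% ± 5.26 in Mut (SD, n = 4), a difference of 4.03 percentage points that did not pass (exact two-sided permutation p = 0.2, adjusted over 3 tests 0.3, smallest possible 0.0286). Without Mut 3 it was 6.61 points (exact permutation p = 0.057, the smallest that 3 against 4 allows), and among the libraries with airway RNA 1.43 points (exact p = 0.8).

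Of the sum of all 8 members, Myh6 took 50.7% ± 1.65 in WT and 46.7% ± 5.24 in Mut, and Myh7 took 48.1% ± 1.6 and 52.1% ± 5.16. Myh7b held 1.12% ± 0.053 in WT and 1.12% ± 0.084 in Mut. Myh8 held 0.054% ± 0.0020 and 0.052% ± 0.0092, and Myh3 0.0054% ± 0.0018 and 0.0044% ± 0.0012. The 6 minor members together held 1.19% ± 0.052 in WT and 1.18% ± 0.089 in Mut (difference -0.0048 points, exact permutation p = 0.91, adjusted 0.91). The sign of that difference turned without WT 4 (0.014) and without Mut 3 (0.040).

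The summed level of the 8 members was 4172, 4425, 3933 and 4007 CPM per kb in WT 1 to 4 and 3426, 3327, 3790 and 3232 in Mut 1 to 4. All mutants lay below all WT libraries, with Mut 3 nearest to them. The mean was 4134 ± 218 in WT and 3444 ± 244 in Mut, a difference of -690 CPM per kb or -16.7% (exact two-sided permutation p = 0.0286, the smallest possible, and 0.0857 adjusted over 3 tests, which misses 0.05). With the library totals as the only scaling the difference was -551 (exact p = 0.0286). Within the airway RNA libraries it was -526, with both mutants below all 3 WT libraries (exact permutation p = 0.2, the smallest that 3 against 2 allows). In bulk RNA, fewer cardiomyocytes and less RNA per cardiomyocyte cannot be told apart.

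**Figure D3:**
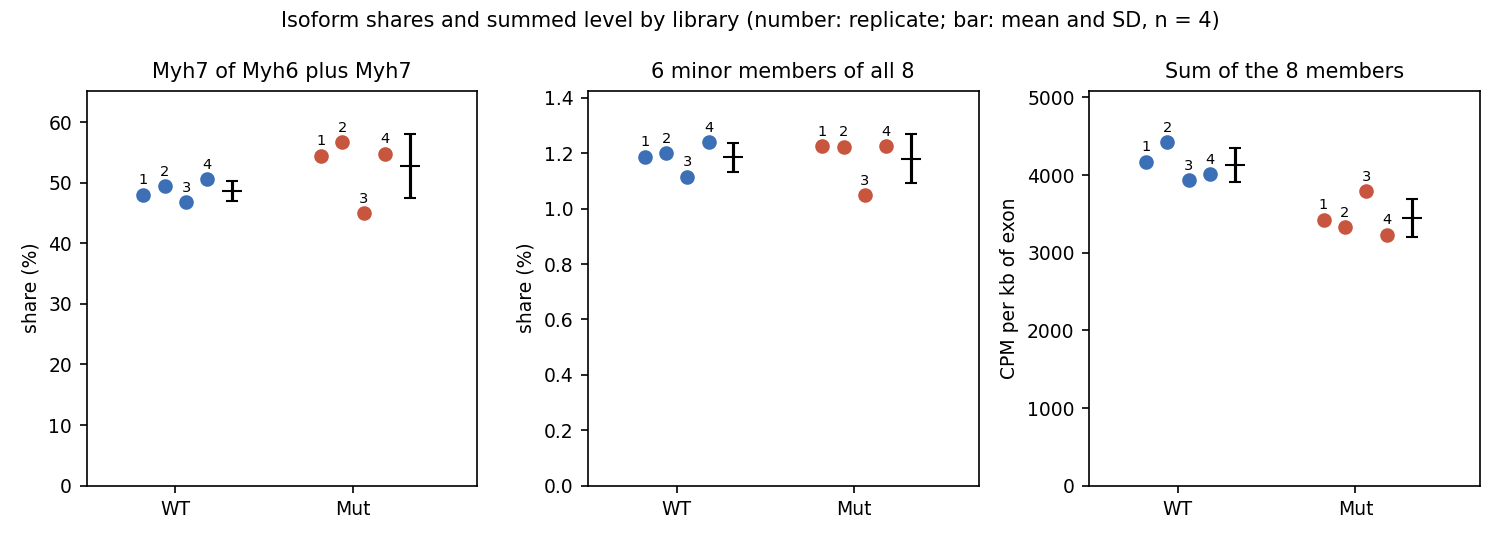
Share of Myh7 in the sum of Myh6 and Myh7 (%), share of the 6 minor members in all 8 (%), and summed level of the 8 (CPM per kb of exon) in each library, with the replicate number over each point and the mean and SD (n = 4) as a bar; all axes start at 0. Mut 3 is the lowest library for both shares (45.0% and 1.05%), and every mutant is below every WT library for the sum.

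RNAs of the member loci were counted as genes of their own. Mhrt, a long non-coding RNA transcribed antisense to Myh7, was at 15.6, 14.8, 13.7 and 12.0 CPM in WT 1 to 4 and at 10.1, 9.21, 10.6 and 9.50 CPM in Mut 1 to 4. Every mutant lay below every WT library, and the mean fell from 14.0 ± 1.55 to 9.86 ± 0.63 CPM (log2 change -0.51 ± 0.09, adjusted p = 0.0020, edgeR). Of the exon bases of Mhrt, 463 (38.1%) also lie in exons of Myh7 on the other strand, and no strand setting of the counting is given, so reads there cannot be told apart. The hairpin genes Mir208a and Mir208b had 13 to 46 and 19 to 43 counts; a library of this kind does not capture mature microRNAs, so these are reads over the intron. Mir208a was at 1.22 to 1.63 CPM in WT and 0.60 to 2.37 CPM in Mut, highest in Mut 3 (log2 change -0.14, adjusted p = 0.87, edgeR). Mir208b was at 1.5 to 2.15 CPM in WT and 0.88 to 1.80 CPM in Mut (-0.56, adjusted p = 0.16, edgeR). Mir499 had 0 to 4 counts and was not tested. In this list 1 of 3 tested genes, Mhrt, was called lower and none higher, where 7.49% of all genes were called lower.

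The other class II heavy chains listed are the non-muscle and smooth muscle chains, Myh13, the chain of extraocular muscle, and Myh15. Myh15 was at 0 to 0.054 CPM and was not tested. Of 5 tested, 1 was called lower (20% against 7.49% of all genes) and none higher (median log2 change -0.17): Myh9, the non-muscle IIA chain, fell from 452 ± 12.9 to 403 ± 16.9 CPM (-0.17 ± 0.04, adjusted p = 0.012, edgeR). In the libraries with airway RNA it was not called (-0.11, adjusted p = 0.11). Myh10 was at 0.01, Myh11, the smooth muscle chain, at -0.28, Myh13 at -0.34 and Myh14 at 0.12, with adjusted p of 0.70 to 0.97 (edgeR).

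**Figure D4:**
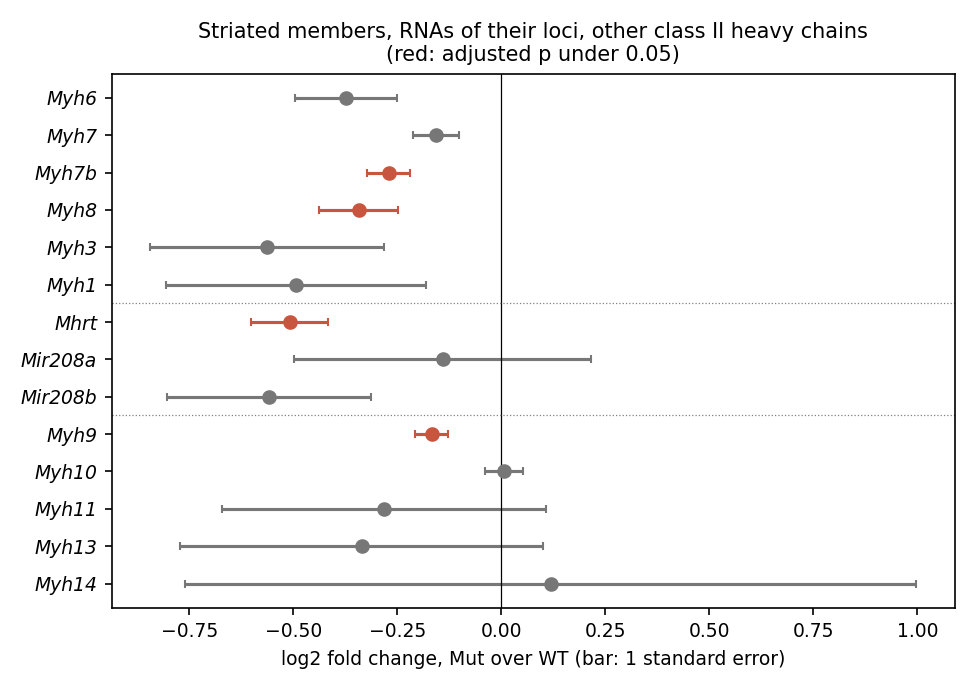
Log2 fold change, Mut over WT, with 1 standard error for the 6 tested members, the RNAs of their loci and 5 other class II heavy chains; red marks an adjusted p under 0.05. The members lie between -0.56 and -0.16, and Myh7b, Myh8, Mhrt and Myh9 are the genes in red.

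Partners of the myosin heavy chains in the thick filament include the myosin light chains, the myosin binding proteins C, and the M-band and elastic scaffolds. Of 18 tested, 7 were called lower and none higher (38.9% against 7.49% of all genes, median -0.12). Myl3, the ventricular essential light chain, fell by 0.21 on the log2 scale (adjusted p = 0.0077), Mybpc3, the cardiac binding protein C, fell by 0.18 (adjusted p = 0.013), and Mybpc1, the slow skeletal form, fell by 0.82 from 3.06 CPM (adjusted p = 0.0068, all edgeR). In the libraries with airway RNA Mybpc3 was not called (-0.13, adjusted p = 0.084). The mean log2 level of the 18 had a Pearson r of 0.90 with Myh6 and -0.22 with Myh7 within genotype, over 8 libraries. Mut 3 was the highest mutant for Myh6 and for this mean (7.36, against 7.25 to 7.26 in Mut 1, 2 and 4). The WT libraries spanned 7.39 to 7.42, and r without Mut 3 was not computed. Among 9 factors of myosin folding and turnover, 1 was called lower, a share of 11.1% near the 7.49% of all genes, and none higher: Trim54, a muscle RING finger protein, at -0.41 (adjusted p = 0.018, edgeR), lost without WT 2, Mut 3 or Mut 4 (adjusted p = 0.053 to 0.063).

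Regulators of the cardiac myosin genes numbered 25 tested, 3 called higher and none lower (12% against 5.75%, median 0.06). Sp3, a zinc finger transcription factor, rose by 0.24 (adjusted p = 0.0017), Parp1, a poly(ADP-ribose) polymerase, by 0.17 (adjusted p = 0.0047) and Hdac1, a histone deacetylase of NuRD, by 0.12 (adjusted p = 0.042, all edgeR). The Hdac1 call was lost without any 1 of 7 libraries, all but Mut 4 (adjusted p = 0.050 to 0.13). Of 14 genes of the thyroid hormone axis tested, which acts on the Myh6 and Myh7 promoters, none was called; Ncor1, a corepressor and the most abundant of them, was at 0.04 (adjusted p = 0.55, edgeR).

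Markers were read beside these values. Over all tested genes 7.49% were called lower and 5.75% higher. Of 10 cardiomyocyte markers 4 were called lower (40%) and none higher. The sum over all 10 was 29749 to 33369 CPM in WT and 24959 to 27441 in Mut. Much of its fall was Actc1, cardiac actin, whose mean went from 11206 CPM in WT to 8288 in Mut. Actc1 was at -0.44, Csrp3 at -0.42 and Actn2 at -0.28 (adjusted p = 1.8e-04, 2.6e-04 and 7.6e-04, edgeR). Tnnt2 (-0.04), Tnni1 (-0.08), Tnni3 (-0.15), Ryr2 (-0.08), Pln (-0.07) and Nkx2-5 (0.08) were not called (adjusted p = 0.081 to 0.71, edgeR). Of 12 atrial markers 1 was called higher (Nr2f2, 0.27, adjusted p = 0.0013) and 2 lower (Bmp10, -0.94, adjusted p = 0.017, and Dkk3, -0.24, adjusted p = 0.027). Of the atrial markers not called, Stard10 (0.32, all mutants above all WT), Clu (0.11) and Nr2f1 (0.03) were above 0. Mybphl (-0.17), Nppa (-0.13), Kcna5 (-0.12), Sln (-0.11), Myl4 (-0.11) and Myl7 (-0.09) were below 0. These had adjusted p of 0.056 to 0.91 (edgeR). The sum over all 12 was 4798 to 5538 CPM in WT and 3940 to 4962 in Mut, with Mut 3, at 4610, inside the mutant range. The Dkk3 call was lost without WT 1, 2 or 4 or Mut 2, 3 or 4 (adjusted p = 0.053 to 0.10, edgeR). With the atrial mean as a covariate Myh8 was not called (-0.22, adjusted p = 0.16). Of 9 genes listed as ventricular markers 1, Myl3, was called lower (11.1%) and none higher, with a median log2 change of 0.05. Irx4 (0.15), Hey2 (0.22), Gja5 (0.33, all mutants above all WT) and Lrrc10 (0.22) had values above 0 that did not pass (adjusted p = 0.0501 to 0.27, edgeR). Prdm16 (0.05) was also above 0, and Kcne1 (-0.20), Fhl2 (-0.09) and Myl2 (-0.03) were below 0. These did not pass either (adjusted p = 0.059 to 0.81, edgeR). Which chamber the Gja5 RNA came from was not tested. The sum over all 9 was 6944 to 8001 CPM in WT and 6713 to 7077 in Mut. Skeletal muscle markers, of which 13 of 22 passed the filter, had 5 called lower (38.5% against 7.49% of all genes) and none higher. Among the 5 were Casq1 (-1.05, adjusted p = 3.2e-04), Ckm (-0.23, adjusted p = 0.0039) and Mybpc1. Of those not called, Ryr1 (0.49 from 0.48 CPM, all mutants above all WT), Mylpf (0.34) and Tnnt3 (0.04) were above 0. Cacna1s (-0.96 from 0.61 CPM), Acta1 (-0.37, all mutants below all WT), Mybpc2 (-0.19), Tnni2 (-0.16) and Neb (-0.05) were below 0. Their adjusted p was 0.13 to 0.94 (edgeR). The sum over all 22 was 2564 to 2849 CPM in WT and 2111 to 2356 in Mut, most of it Ckm, which heart also expresses. Myod1 was at 0 in all 8 libraries, Myf5, Myf6, Pax7 and Chrnd at 0 to 2 counts and Myog at 1 to 6. The part of these markers in the results on the members was not tested beyond the covariates.

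The counts below stand against 7.49% of all genes called lower and 5.75% higher. Of 7 smooth muscle markers 2 were called lower (Smtn, -0.23, adjusted p = 0.0033, and Acta2, -0.23, adjusted p = 0.0045). Of 8 endothelial and endocardial markers Tek was called higher (0.20, adjusted p = 0.0040) and Kdr (-0.18, adjusted p = 0.017) and Nfatc1 (-0.20, adjusted p = 0.027) lower. Of 8 fibroblast markers Tcf21 (-0.25, adjusted p = 0.0054) and Postn (-0.18, adjusted p = 0.021) were called lower. None of 10 lung markers (Scgb3a2, -0.39, adjusted p = 0.94) or 7 erythroid markers (Hbb-bs, -0.95, adjusted p = 0.077) was called, all by edgeR. The median log2 change was 0.08 for the lung markers and -0.84 for the erythroid markers. The erythroid sum was 2034 to 3893 CPM in WT and 1252 to 1973 in Mut. The call of Kdr was lost without WT 1 or Mut 3 (adjusted p = 0.051 and 0.083). That of Nfatc1 was lost without WT 1, 2 or 3 or Mut 1 or 4 (adjusted p = 0.053 to 0.099), and that of Postn without WT 4 or Mut 2, 3 or 4 (adjusted p = 0.051 to 0.097). Antisense genes overlap 26.6% of the exon bases of Trim54, 16.3% of Smtn and 15.5% of Ckm, and their reads may not be separated there.

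As a description of likeness, genes of at least 5 CPM were ranked by the Pearson correlation of log2 CPM over the 8 libraries after the genotype means were subtracted (11558 genes). Those most like Myh6 were Pgam5 (r = 0.99), Ppp1r3d (0.98) and Naa10 (0.97), and the most opposed were Irx2 (-0.97), Zfc3h1 (-0.96) and Cdca4 (-0.95). Those most like Myh7 were Amacr, Ankrd24 and Tpt1 (each 0.99), and the most opposed were Cdkn2aipnl, Itgal and Adcy9 (each -0.98). Myh6 and Myh7 themselves had r = -0.29. Without the subtraction, Pgam5, Ppp1r3d and Naa10 had r = 0.31, -0.04 and 0.11 with Myh6, and the genes most opposed to it -0.89 to -0.79. For Myh7 the most like had 0.91 to 0.996 and the most opposed -0.99 to -0.55. These values rest on 8 libraries that share depth and scaling.

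Across the alternatives the 4 more abundant members were always below 0 in mutants. Myh6 and Myh7 crossed the 0.05 line in some settings, Myh7b stayed called in all but the one with skeletal muscle markers as a covariate, and Myh8 lost its call most often.

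**Figure D5:**
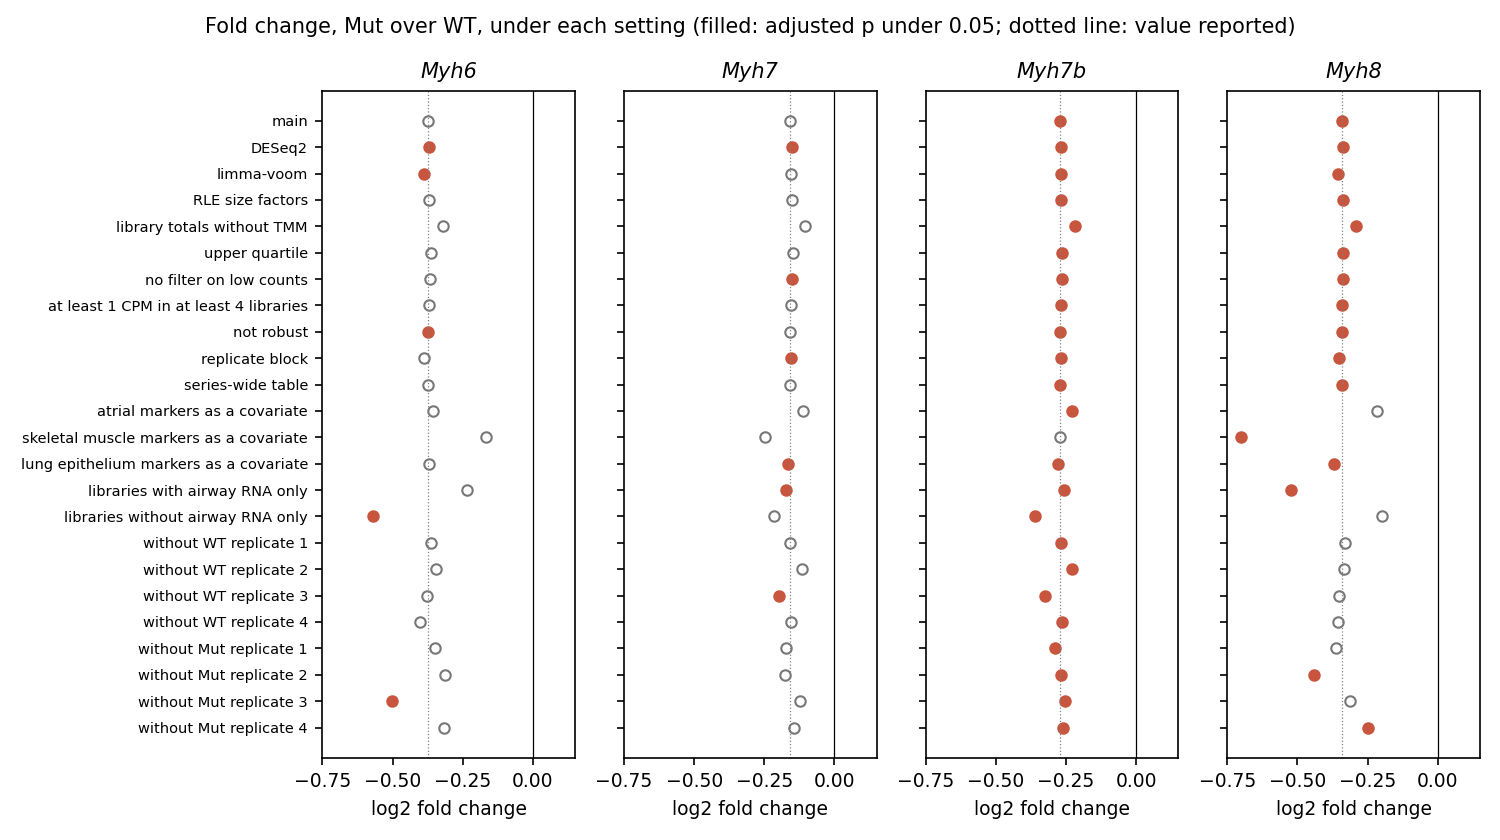
Log2 fold change, Mut over WT, of Myh6, Myh7, Myh7b and Myh8 under each test, scaling, filter, covariate, choice of libraries and left-out library; filled points have an adjusted p under 0.05 and the dotted line is the reported value. The setting without airway RNA has 1 WT library, whose spread is assumed. Leaving out Mut 3 moves Myh6 to -0.50, and all points lie below 0.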

How the data were processed

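Mouse heart RNA was prepared with a TruSeq RNA kit (per the labels' protocols) into 4 wild-type and 4 CHD4 M195I/M195I libraries. The deposited files hold raw counts of reads per gene. Per the submitters' processing notes, Trimmomatic 0.36, STAR 2.5.2b, featureCounts of Subread 1.5.2 and GRCm38 were used; the sources used here do not give strand or multi-mapping settings. Counts in the files per library and in the series-wide table were identical for all 49315 genes. Symbols came from GENCODE M21 (48970 matched).

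Library totals were 18375951 to 21341235 counts. Genes were tested in edgeR 4.0.16 (R 4.3.3) with a robust quasi-likelihood fit on the deposited counts, TMM scaling, filterByExpr with a minimum count of 10, genotype as the only term and Benjamini-Hochberg adjustment over 16372 genes; a call is an adjusted p under 0.05. The SE is the log2 change divided by the root of the F statistic. Shares used counts per kb of all exon bases and exact permutation tests (SciPy 1.17.1), adjusted over 3 tests. Correlations used log2 CPM with a prior count of 2. Same-numbered libraries were not treated as pairs, since the labels give no pairing. Their deviations from the group means correlated at -0.52, 0.77, 0.56 and 0.10, which cannot show whether litters were matched. No pair of libraries within a genotype agreed within counting noise (chi-square per degree of freedom of 2.88 to 9.29).

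The members and the gene lists were chosen with earlier results of these data known. Named besides the members are Scgb3a2 and Sftpc, all RNAs hosted by or antisense to members, up to 3 called genes per direction of each list (where none was called, its most abundant member), and the 3 most and 3 least correlated genes of Myh6 and Myh7. Irx4, Hey2, Gja5, Lrrc10, Myh10, Myh11, Myh13, Myh14, Myh15, Myod1, Myf5, Myf6, Pax7, Chrnd and Myog were named after their values were seen. So were the cardiomyocyte, atrial, ventricular and skeletal muscle markers given as not called. Alternatives were DESeq2 1.42.0, limma-voom (limma 3.58.1), other scalings and filters, covariates and left-out libraries. After the data were seen, the fit on libraries without airway RNA and the shares by transcript length were added. Airway RNA was defined as at least 10 CPM of Scgb3a2.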

Additional observations from a re-analysis of the deposited data

Results flagged for a closer look

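Within each genotype the highest and the lowest library of 12 values (6 members, 3 RNAs of their loci, both shares and the summed level) were compared with their nearest neighbour. Of 24 groups of 4 libraries, 1 stood out, against about 1 in 20 by chance. The 6 minor members held 1.05% of the myosin heavy chain sum in Mut 3, while the other 3 mutants were at 1.22% to 1.23%, a gap of 0.986 of the whole range.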

How the results depend on the processing

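The count of members called lower, 2 in the reported fit, was 4 with DESeq2 (Myh6 and Myh7 added, adjusted p = 0.0497 and 0.020), 1 with the atrial markers and 1 with the skeletal muscle markers as a covariate, and 1 to 2 when 1 library was left out; it was 2 or 3 elsewhere, and none was called higher under any setting. The summed level differed by -690 CPM per kb with an exact sign-flip p of 0.125, the smallest possible, with the replicate number as a block, by -526 (exact p = 0.2, the smallest possible) in the libraries with airway RNA and by -806 to -593 with 1 library left out (each exact p = 0.057, the smallest possible). The labels do not say whether the replicate numbers pair the libraries. With these numbers as a block Myh7 was called (-0.16, adjusted p = 0.015, edgeR). In that fit members called lower were 3 and calls over all genes 1023 higher and 1432 lower. The skeletal muscle covariate left 80 higher and 247 lower calls over all genes. Of the 13 genes in that covariate 5 were themselves called. Its mean log2 CPM was 3.28 to 3.42 in WT and 2.82 to 3.13 in Mut, so that fit separates the covariate from genotype poorly. Under this covariate Myh3 turned to 0.44, Mir208a to 1.02, Mir208b to 0.028 and Scgb3a2 to 4.40. Myh7b (-0.27, as in the reported fit, adjusted p = 0.21) and Mhrt (-0.35, adjusted p = 0.35) lost their calls (edgeR). Mir208a also turned in the airway RNA libraries (0.37) and, with 1 library left out, ranged from -0.59 to 0.10. Scgb3a2 turned to 0.18 in the libraries with airway RNA and to 1.94 in those without it, and ranged from -1.40 to 0.023 with 1 library left out. The share of the 6 minor members ranged from -0.028 to 0.040 points with 1 library left out, turning without WT 4 and Mut 3. The cause of these changes was not tested. Myh6 was also called with limma-voom (adjusted p = 0.032) and the fit that was not robust (adjusted p = 0.037), and Myh7 without the filter on low counts (adjusted p = 0.031, edgeR). Of the other genes named, calls were lost in the libraries with airway RNA for Mybpc3, Hdac1, Myh9, Bmp10 and Nfatc1. Over 40 values and 27 settings, 750 recomputed values kept their direction and side of the threshold, 98 lost and 16 gained a call in the same direction, 14 changed sign and 7 counts moved by over 1.5 times; the fit without airway RNA is among the settings and has 1 WT library. Depth limits Myh2, Myh4, Myh1 and Myh3, which had 0 to 36 counts a library.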
